A study of Homo sapiens with 3 samples.

Results

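The chromosome 9p peaks described here are the 1003 accessible regions whose start lies on chromosome 9 between 15 and 34 Mb (GRCh38 coordinates), of 215590 peaks in the whole matrix (0.465%). They were chosen by position alone, around CDKN2A, the tumour suppressor gene at the middle of this stretch. The 10x Genomics Multiome assay reads RNA and accessible chromatin of each cell together. Cells were of CL3, a clone of the human mesothelioma line NCI-H226 selected for growth in the TEAD inhibitor GNE7883, challenged with GNE7883 or DMSO. Parental NCI-H226 cells, with the same 2 agents, served as the sensitive comparison. Every group lacked NF2, and CL3 is a single clone that had been raised over rising doses from 0.25 to 3 µM, per the labels. All groups were pooled in 1 channel after marking with hashtag antibodies, and the matrix used here names no hashtag, so no cell could be given a line or a treatment and all cells form 1 sample without replicates. No p-value was computed. Intervals are 95% intervals that cover counting error only.

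CDKN2A encodes a pair of unrelated proteins from alternative first exons. One is p16INK4a, which holds the cyclin D kinases CDK4 and CDK6 in check and so keeps the retinoblastoma protein active, and the other is ARF, which restrains the ubiquitin ligase MDM2. CDKN2B, beside it, encodes another inhibitor of the same kinases, CDKN2B-AS1 (ANRIL) is a long non-coding RNA read in the opposite direction, and MTAP encodes the enzyme that salvages methylthioadenosine. Deletion of this locus, often with MTAP and the type I interferon genes beside it, is among the most frequent lesions in mesothelioma. Accessible chromatin and transcripts can only come from DNA that is present, so a complete deletion would leave neither peak counts nor UMIs (unique molecular identifiers, 1 for each captured RNA molecule) over the deleted stretch.

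Start regions of the locus are shown because a peak at each of them is what a complete deletion would remove. They run from 250 bases before to 50 bases after each RefSeq start (GRCh38.p14), 5′ to 3′ on the strand of the gene, and all 4 genes matched. Capitals mark GGGCGG and its reverse complement CCGCCC, the core of the GC box. The first is MTAP at chr9:21802386-21802685 on the plus strand, wholly inside a peak.
MTAP: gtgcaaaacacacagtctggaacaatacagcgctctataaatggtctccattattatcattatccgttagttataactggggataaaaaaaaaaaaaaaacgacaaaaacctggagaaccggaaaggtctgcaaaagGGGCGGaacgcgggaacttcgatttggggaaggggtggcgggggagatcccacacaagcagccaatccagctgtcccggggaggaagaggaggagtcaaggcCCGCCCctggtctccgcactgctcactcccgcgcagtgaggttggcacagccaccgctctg
The next is the p16INK4a start of CDKN2A at chr9:21974808-21975107 on the minus strand, wholly inside a peak.
CDKN2A, p16INK4a start: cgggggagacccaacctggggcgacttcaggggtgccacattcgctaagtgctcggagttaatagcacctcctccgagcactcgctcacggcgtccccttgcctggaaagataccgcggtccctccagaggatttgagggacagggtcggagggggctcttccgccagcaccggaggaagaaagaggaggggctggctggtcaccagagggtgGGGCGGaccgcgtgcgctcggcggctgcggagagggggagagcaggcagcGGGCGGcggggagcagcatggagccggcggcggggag
The start of CDKN2B-AS1 lies at chr9:21994541-21994840 on the plus strand, wholly inside a peak.
CDKN2B-AS1: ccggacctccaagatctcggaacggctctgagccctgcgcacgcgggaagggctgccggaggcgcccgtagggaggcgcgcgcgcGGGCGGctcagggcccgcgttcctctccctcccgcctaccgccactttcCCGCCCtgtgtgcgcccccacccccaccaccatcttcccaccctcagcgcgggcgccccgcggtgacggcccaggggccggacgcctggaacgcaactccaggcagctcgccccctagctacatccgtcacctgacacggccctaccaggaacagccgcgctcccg
The ARF start of CDKN2A lies at chr9:21995275-21995574 on the minus strand, and 49 of its 300 bases overlap a peak.
CDKN2A, ARF start: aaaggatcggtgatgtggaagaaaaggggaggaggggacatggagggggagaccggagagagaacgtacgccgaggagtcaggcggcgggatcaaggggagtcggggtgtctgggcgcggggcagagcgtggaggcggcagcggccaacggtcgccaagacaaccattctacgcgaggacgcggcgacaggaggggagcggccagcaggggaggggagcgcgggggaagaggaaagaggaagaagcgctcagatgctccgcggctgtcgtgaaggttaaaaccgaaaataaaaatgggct
The start of CDKN2B lies at chr9:22009256-22009555 on the minus strand, wholly inside a peak.
CDKN2B: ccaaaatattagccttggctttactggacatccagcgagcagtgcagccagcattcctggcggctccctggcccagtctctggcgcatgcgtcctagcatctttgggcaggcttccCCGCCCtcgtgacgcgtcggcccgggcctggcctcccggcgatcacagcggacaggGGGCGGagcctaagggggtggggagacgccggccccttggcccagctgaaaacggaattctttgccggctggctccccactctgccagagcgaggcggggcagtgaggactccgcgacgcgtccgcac
GGGCGG, on either strand, occurred in 4 of these 5 windows and in 45.0% of the 35116 RefSeq promoter windows of the same length. The 5 windows held 15, 26, 36, 28 and 25 CG pairs, in the order printed, against a median of 14 over all promoter windows. The TEAD motif GGAATG occurred in the CDKN2B window, at lower-case letters, and in 14% of all windows. The AP-1 motif TGANTCA occurred in 0 of the 5 and in 7.70% of all windows. GGAATG and TGANTCA were likewise searched on both strands, and such matches describe letters, not binding.

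Chromatin was accessible across CDKN2A. The CDKN2A row of the matrix (chr9:21971332-21995301) was overlapped by 4 peaks with 1705 counts in the 8913 cells. The peak over the p16INK4a start (21974619 to 21975516) had 506 counts. The peak over the CDKN2B-AS1 start at the other end of the row (21994108 to 21995010) had 1066 counts, the most of the locus. Both peaks between them, inside the CDKN2A gene, were faint, with 91 and 42 counts, and the peak that reaches into the ARF start (21995526 to 21996241) had 214. The start of CDKN2B carried 878 counts (22008904 to 22009697) and that of MTAP 505 (21802132 to 21802991). In the direction of MTAP the 3 nearest peaks held 40 to 51 counts, and beyond the ARF peak towards CDKN2B the next 2 held 42 and 62. Strong peaks lay away from gene starts too. From the start of MTAP to the end of CDKN2B-AS1, 4 of the 39 peaks more than 1 kb from a gene row reached 300 counts (a limit set after the values were seen), and so did 4 of the 7 peaks within 1 kb of one. Of those 39, 3 had 318, 387 and 379 counts, the first pair inside MTAP. The strongest lay at 22103002 to 22104001 with 1025 counts. It is inside the RefSeq interval of CDKN2B-AS1 (21994791 to 22128142) and away from any gene start. That interval held 26 peaks with 5666 counts, and that of MTAP (21802636 to 21941115) held 17 peaks with 2321 counts. From the start of MTAP to the end of CDKN2B-AS1 the longest stretch without a peak measured 37.8 kb.

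**Figure D1:**
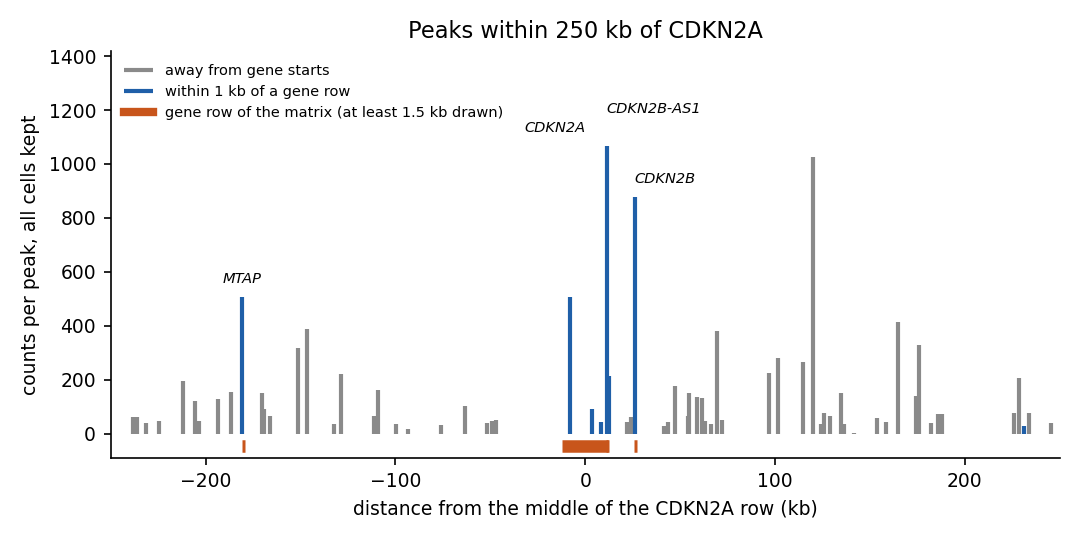
Counts per peak over all cells kept (vertical axis) against the distance of the peak from the middle of the CDKN2A row in kb (horizontal axis). Blue lines are peaks within 1 kb of a gene row and orange bars are the gene rows. The tallest line, 1066 counts, stands at the CDKN2B-AS1 start, and no gap between peaks near CDKN2A exceeds 37.8 kb.

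All 11 genes listed for the INK4 locus and its neighbours had UMIs and a peak within 1 kb, and 7 of the 11 reached 20 CPM (UMIs scaled to a total of 1000000). The list does not hold every row of the locus, and CDKN2A-DT, outside it, had 0 UMIs and no peak within 1 kb. Of all 26 gene rows from 21 to 22 Mb, 9 had such a peak. Over other autosomal gene rows 18.0% reached 20 CPM, 31.9% had no UMI and 62.5% had a peak within 1 kb. CDKN2A itself had 534 UMIs, or 32.2 CPM (29.5 to 35.0), and the free RNA of near-empty barcodes gave 20.3 CPM (11.6 to 32.9, from 16 UMIs). CDKN2B had 506 UMIs at 30.5 CPM (27.9 to 33.3), against 13.9 CPM in free RNA. CDKN2B-AS1 had 906 UMIs at 54.6 CPM (51.1 to 58.3), against 17.7 CPM in free RNA. MTAP had 741 UMIs at 44.7 CPM (41.5 to 48.0), against 10.1 CPM in free RNA. Each of these 4 genes stood higher in cells than in free RNA, though for CDKN2A the intervals overlap. UMIs of CDKN2A do not tell p16INK4a from ARF transcripts. CDKN2A and CDKN2B-AS1 overlap on opposite strands, and since the sources used here do not say how strand was counted, reads from their shared stretch are uncertain. Of the neighbours, MLLT3, a subunit of the super elongation complex, stood at 105.8 CPM, MIR31HG, the host RNA of miR-31, at 80.5 CPM (76.2 to 84.9) and FOCAD at 27.3 CPM. HACD4, KLHL9, DMRTA1 and ELAVL2 lay between 0.844 and 13.3 CPM.

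The type I interferon genes, all but IFNK of which lie between MLLT3 and MTAP, are silent in most cells until a virus is sensed, and were nearly without signal here. Of the 17 genes, 15 had 0 UMIs in all cells, which allows up to 0.222 CPM each. IFNE, the interferon of reproductive epithelium, had 11 UMIs and IFNB1 had 2. A peak lay within 1 kb of 1 of the 17, IFNB1, and it held 28 counts. Several IFNA genes are near-identical copies, among which reads cannot be placed with certainty. KLHL9, which lies among them, had 220 UMIs and a start peak of 372 counts, so the stretch itself was not without signal.

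Counts summed in 1 Mb windows gave no empty window: 0 of 19 lacked a peak. Of the 2699 autosomal windows with a gene row 0.259% lacked one, so the 0 is near the general share. The window with CDKN2A, from 21 to 22 Mb, held 80 peaks and 11181 counts, or 231 peak CPM (225 to 237, counts scaled to a total of 1000000). That is 80.2% of the median of autosomal windows that hold a gene (13940 counts), at the 41.1 percentile, and its 80 peaks equal the median number. The window from 22 to 23 Mb, with the CDKN2B-AS1 body, held 8756 counts (62.8% of the median). The windows with most counts were those from 16 Mb, around BNC2, with 22051 and from 33 Mb with 21866. So the centre of the stretch was neither its fullest nor its emptiest part. Of the 19 windows, 16 lay below the autosomal median.

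Low windows, taken as those at 10% or less of that median (1394 counts), numbered 4 of 19, against 7.60% of autosomal windows. They lay centromeric to the locus. The window from 24 Mb had 1288 counts in 27 peaks. The windows from 28, 29 and 30 Mb had 1073, 570 and 424 counts in 26, 9 and 6 peaks. All 4 windows are gene-poor, with 1 to 3 gene rows each, against a median of 10. Their genes had 5, 81, 0 and 3 UMIs, of which 79 were from LINGO2, a neuronal leucine-rich repeat protein. Across the autosomes 98.5% of low windows hold no gene at 20 CPM, and among windows without such a gene 25.3% are low. Of the 9 windows of the 9p stretch that lack one, 4 are low. That count is small, and gene content moves with it.

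**Figure D2:**
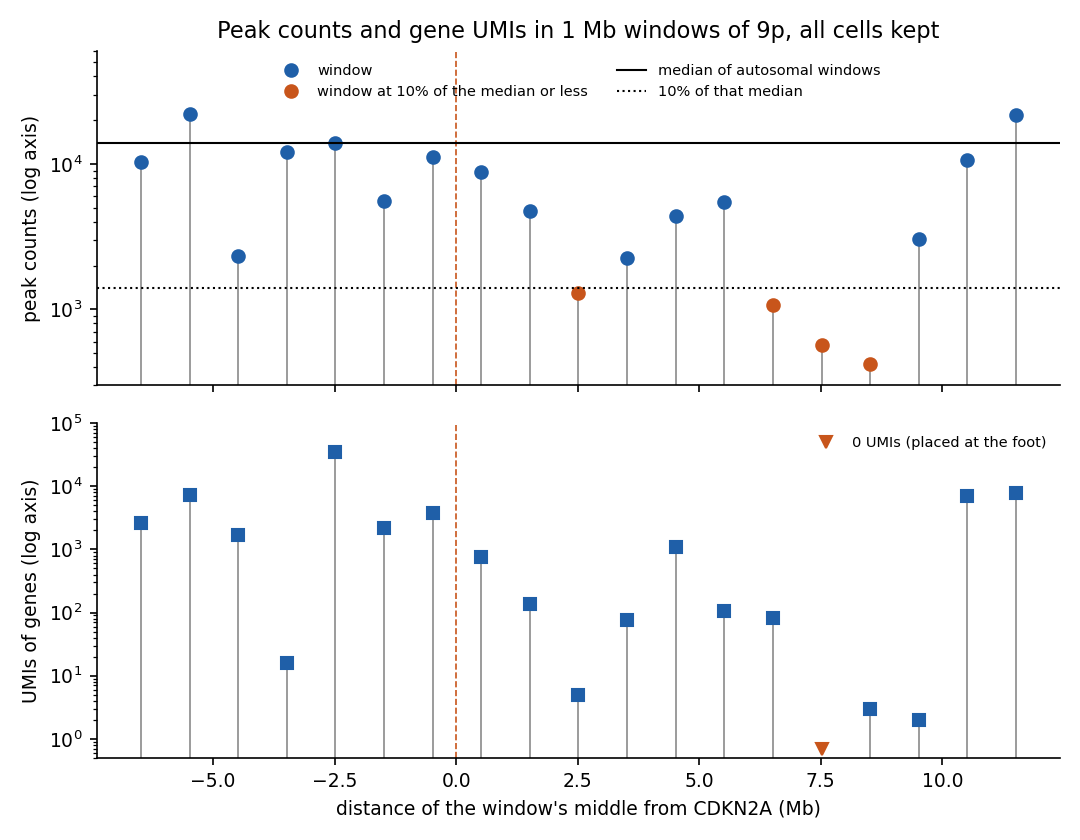
Peak counts (upper panel) and UMIs of genes (lower panel) in each 1 Mb window over all cells kept, both on log axes, against the distance of the window's middle from CDKN2A in Mb. The solid line is the autosomal median of 13940 peak counts and the dotted line 10% of it. The 4 orange windows at or under the dotted line lie 2.5 to 8.5 Mb centromeric to CDKN2A, while the window with CDKN2A has 11181 peak counts and 3791 UMIs.

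The longest stretch without a peak ran for 492.8 kb, from 30011439 to 30504211, and holds no gene row. On the autosomes 125 stretches are longer. The second, 323.4 kb from 27889299, holds 1 gene row (AL353746.1, 1 UMI), and the third, 319.5 kb from 20000051, holds none. In all, 33 of 2013 autosomal stretches of over 100 kb lie between 15 and 34 Mb. The autosomes have 209060 stretches of any length, and this part holds 1003 peaks, 0.465% of all peaks. Long stretches were thus more frequent here. In bins of 0.1 Mb, 33 of 190 had no peak, against a background of 8.48% of 26990 bins in autosomal 1 Mb windows that hold a gene row. The longest run of such bins was 4, from 30.1 to 30.5 Mb, and between 21 and 23 Mb only 2 bins were empty. No stretch of over 100 kb here held a gene row with more than 28 UMIs. Rows mark gene starts, and the body of a gene can cross such stretches. That of LINGO2 (RefSeq 27937617 to 29213601, 79 UMIs) does so.

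Every expressed gene of the stretch had a peak within 1 kb of its row. Of the 146 gene rows, 82 had a peak within 1 kb (56.2%, 47.7 to 64.4), against 62.5% (62.0 to 63.0) of 35154 other autosomal rows. Among genes at 20 CPM or more the share was 28 of 28 on 9p (100%, 87.7 to 100) and 6277 of 6334 elsewhere (99.1%). The peaks themselves were weaker than most of the autosomes gave. Their median was 66 counts (interquartile range 38.5 to 139.5), against 91 (47 to 230) over 208079 other autosomal peaks. The difference was present at gene starts, with medians of 98 and 147 counts, and away from them, with 62 and 82. The neighbouring 0 to 15 Mb of chromosome 9 had much the same level, with medians of 69 counts over all its 984 peaks, 80 at gene starts and 66 away from them. A smaller share of the stretch's peaks lay at gene starts, 19.04%, against 25.5% of other autosomal peaks. The 5 strongest peaks were those at the starts of DENND4C (1653 counts), RRAGA with SAXO1 (1470), TTC39B (1396) and CCDC171 (1293), and 1 away from gene starts at 19153835 to 19154718 (1343). All 5 lie telomeric to 20 Mb.

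The strongest peak within 1 kb of the row of each expressed gene, called its start peak here, was compared next. Rows differ in width. That of DNAJA1 starts and ends at 33025273, while that of MLLT3 (20382469 to 20622518) has 22 peaks within 1 kb. For wide rows the value is thus the highest of many peaks, and positions are not alike. Over the 28 genes of 9p at 20 CPM or more, the start peak had a median of 832.5 counts (interquartile range 681.2 to 1066, lowest 276, highest 1653). Over 6298 other autosomal genes outside 9p the median was 1248.5 (862 to 1725.8). In total, 26 of the 28 lay below it. Within the stretch the level was lower towards the centromere. The 8 genes from 15 to 20 Mb had a median of 1152 counts (570 to 1653), and 6 of 8 lay below the autosomal median. The 20 genes from 20 to 34 Mb had a median of 773.5 (276 to 1122), 0.620 of the autosomal one, and all 20 lay below it. Outside the stretch, the 18 genes from 0 to 15 Mb had a median of 1365, but the 3 of them next to the stretch, from 10 to 15 Mb, had 838, and the 18 from 34 to 43 Mb a median of 593. The limits of these parts were chosen after the values were seen.

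At the locus, the strongest start peaks had 1066 counts for CDKN2B-AS1, 878 for CDKN2B, 505 for MTAP and 449 for MIR31HG. The wide CDKN2A row takes the same peak of 1066 counts, which lies outside both CDKN2A start windows printed above. The peak over the p16INK4a start had 506 counts and that reaching into the ARF start 214. Further along, B4GALT1 (1122 counts), CHMP5 (1049) and UBAP2 (1040) were the highest up to 34 Mb, and NDUFB6 (276), a subunit of respiratory complex I, the lowest. DENND4C (1653), RRAGA (1470), of the amino acid sensing Rag GTPases, and RPS6 (1248), of the small ribosomal subunit, led the 15 to 20 Mb genes. The locus thus lay within the range of its part of the arm. In blocks of 5 Mb, the median was 838 from 10 to 15 Mb (3 genes), 1152 from 15 to 20 Mb, 747 from 20 to 25 Mb, 695 from 25 to 30 Mb (2 genes) and 789 from 30 to 35 Mb. The 439 blocks elsewhere with at least 5 such genes had a median of 1256 and a lowest value of 532. Of them, 8.88%, 37.8%, 5.47%, 3.64% and 7.29% were lower than the 5 blocks named, in the same order. The blocks of 3 and 2 genes fall under that minimum, so their 8.88% and 3.64% are not a like comparison. Genes from 20 to 34 Mb were also less expressed, with a median of 42.9 CPM, against 50.7 CPM in other autosomal genes. Fewer DNA copies and less accessibility per copy cannot be told apart in these counts.

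**Figure D3:**
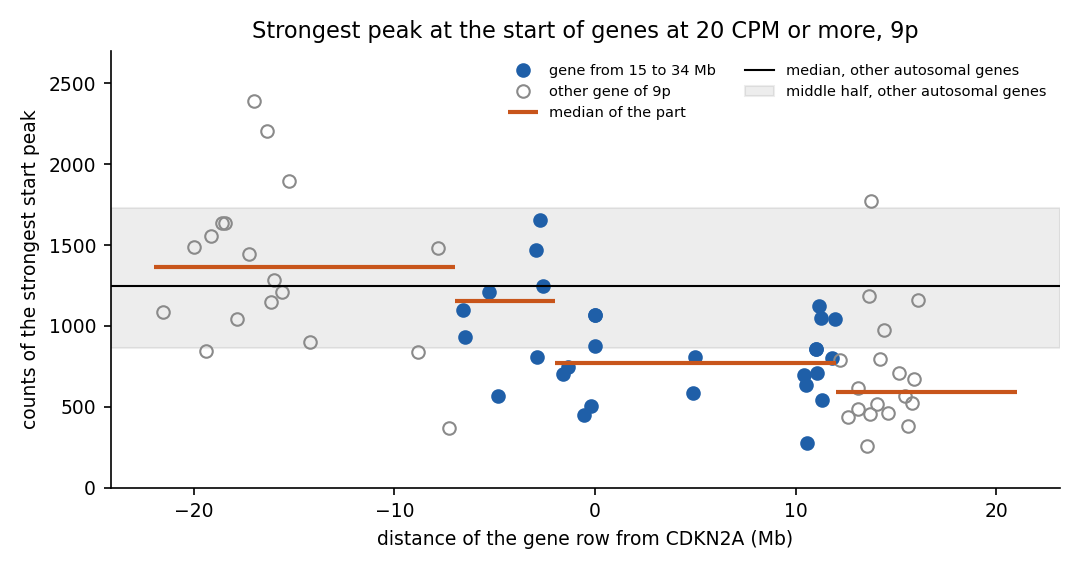
Counts of the strongest peak within 1 kb of each gene at 20 CPM or more (vertical axis) against the distance of the gene from CDKN2A in Mb (horizontal axis). Filled points are genes from 15 to 34 Mb, open points other genes of 9p, orange lines the medians of the parts, and the black line with its band the median of 1248.5 and the interquartile range of other autosomal genes. From 2 Mb telomeric of CDKN2A to the right, all filled points lie below the black line.

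UMIs followed the genes. The 146 gene rows had 69536 UMIs, or 4192 CPM, and 19.2% of them reached 20 CPM while 39.0% had no UMI. Over other autosomal gene rows these shares were 18.0% and 31.9%. The 16 genes of the telomeric flank all had UMIs, 8 of them at 20 CPM or more, with a median of 18.8 CPM. RPS6 alone had 1940 CPM (3275 CPM in free RNA), and its processed copies elsewhere in the genome make its count uncertain. BNC2, a zinc finger factor of mesenchymal cells, had 437 CPM (427 to 448), PSIP1, the chromatin adaptor LEDGF, 107.8 CPM, CNTLN, a centriole protein, 102.8 CPM and DENND4C 73.7 CPM. These levels are scaled to all UMIs and not to gene length. Of the 30 genes of the centromeric flank, 28 had UMIs and 13 reached 20 CPM, with a median of 16.9 CPM. ACO1, the cytosolic aconitase and iron regulatory protein, had 302 CPM (294 to 311), DNAJA1, an HSP70 co-chaperone, 138 CPM, B4GALT1, a galactosyltransferase, 83.4 CPM and UBE2R2, a ubiquitin-conjugating enzyme, 70.9 CPM. The genes nearest to the locus on that side at 20 CPM or more were CAAP1 (20.2 CPM) and IFT74 (26.0 CPM), 4.91 and 4.96 Mb away, with the low window from 24 Mb in between and the other 3 low windows beyond them. Summed by window, genes had 228 CPM (221 to 236) from 21 Mb and 46.3 CPM from 22 Mb.

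Partners of these genes outside 9p were read in the same cells. Over all autosomal gene rows outside the 9p stretch, 18.0% reached 20 CPM and 31.9% had no UMI. Of 12 genes of the INK4, cyclin D and RB pathway, 12 had UMIs and 7 reached 20 CPM. CDK6 stood highest, at 426 CPM (416 to 436), with CCND1 at 180 CPM, CDK4 at 95.3 CPM, RB1 at 69.1 CPM, E2F3 at 58.5 CPM and CCND2 at 56.0 CPM. RBL2 had 27.3 CPM, and CCND3, E2F1, RBL1 and the inhibitors CDKN2C and CDKN2D lay between 3.98 and 18.5 CPM. On the ARF and MDM2 side, MDM2 had 420 CPM (411 to 430), CDKN1A, a cyclin-dependent kinase inhibitor, 142 CPM, MDM4 44.3 CPM, ZMAT3 28.2 CPM and BBC3 20.7 CPM. Of 13 genes of methionine salvage and its PRMT5 partners, 9 reached 20 CPM, among them SMS at 134 CPM, MAT2A, which makes S-adenosylmethionine, at 42.1 CPM and PRMT5, the arginine methyltransferase, at 24.9 CPM. The kinases that p16INK4a acts on, their D cyclins and RB1 were thus transcribed beside CDKN2A in this pool.

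No excess of cells without signal was seen over the whole 1 Mb window with CDKN2A. Had part of them lacked a window, more cells would have had no event there than their depth gives. An event is every 2 counts of a peak in a cell, odd counts rounded up, since 87.9% of peak entries were even. The window with CDKN2A had no event in 5196 cells, against 5153.5 from depth, a ratio of 1.01 (0.990 to 1.03). The ratio would be 1.08 had 25% of cells lacked the whole window. Loss of only a part of it, such as CDKN2A alone, or of some copies, or in fewer cells, would move the ratio less. Such smaller losses were not tested. Over the 19 windows the ratio ran from 0.999 to 1.02, within the range of other autosomal windows (5th to 95th percentile 0.998 to 1.02, median 1.01). In 8 of the 19 windows, those from 17, 24, 25, 26, 28, 29, 30 and 31 Mb, the ratio computed for 25% of cells lacking them (1.00 to 1.015) lay inside the interval of the observed ratio. Such a loss was thus not detectable there at this depth.

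Over the whole 15 to 34 Mb a cell had a mean of 8.45 events and a median of 6. In 252 cells there was none, against 258.2 from depth. The variance of these events over the Poisson variance from depth was 1.04, against 1.08 to 1.57 in 82 other autosomal blocks of 19 Mb. The value was thus below that of all 82 blocks, which were of like event totals (within 2-fold). Among the 892 deepest cells, each with at least 5928 events in all, 0 had no event in the stretch and the lowest had 8, with a median of 23. Complete loss of the stretch was not seen in any of these cells.

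**Figure D4:**
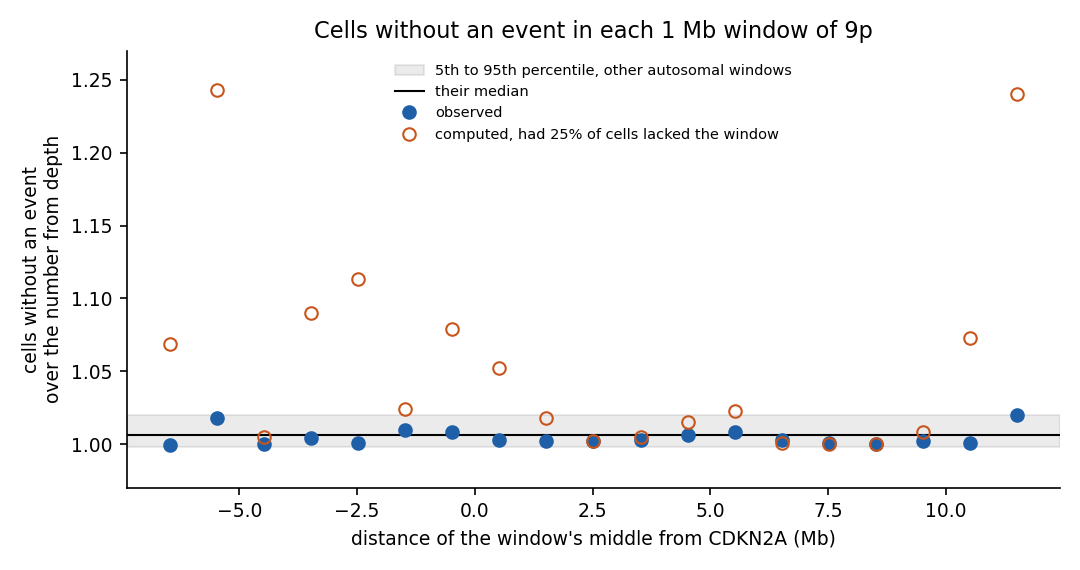
Cells without an event in a 1 Mb window over the number computed from depth (vertical axis), against the distance of the window's middle from CDKN2A in Mb (horizontal axis). Filled points are observed, open points the value had 25% of cells lacked the window, and the band holds the 5th to 95th percentile of other autosomal windows. Observed points run from 0.999 to 1.02, and in 8 windows, the 4 low ones among them, the open point lies inside the interval of the filled one.

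Between groups of cells that differ in the rest of their chromatin, the peak level at the locus did not differ beyond counting error. Clusters were drawn on peaks outside chromosome 9, so the 9p peaks had no part in them, and they are not the study's lines or treatments. The 6 clusters held 2587, 2197, 1757, 1588, 642 and 142 cells. With events scaled to the same total, the stretch in a cluster over that in all other cells gave ratios from 0.984 to 1.02. Over the 55 peaks of the MTAP to CDKN2B-AS1 region the ratio ran from 0.953 (0.804 to 1.12), in cluster 6, to 1.06 (0.996 to 1.13), in cluster 2, and each interval holds 1. Over the 4 peaks of the CDKN2A row it ran from 0.930 to 1.09, again with 1 in every interval. For whole chromosomes the same ratio ran from 0.770 to 1.42, so clusters did differ elsewhere. The lower start-peak level was present in each of the 6. The mean per start peak over that of other autosomal genes was 0.530 to 0.617 from 20 to 34 Mb and 0.791 to 0.859 from 15 to 20 Mb, against 0.973 to 1.03 from 0 to 15 Mb. Beyond the stretch, from 34 to 43 Mb, it was 0.498 to 0.561, so the low level was not particular to the stretch.

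Windows were called different between clusters only where few counts lay. A window was called at 1.5-fold with an interval that excludes 1 and at least 100 events. Below 1.5-fold, some fuller windows also had intervals that exclude 1. Examples are that from 17 Mb in cluster 5 (ratio 1.379, 1.14 to 1.655) and, in cluster 4, those from 15 Mb (1.126, 1.052 to 1.205) and 33 Mb (0.9145, 0.870 to 0.961). In at least 1 cluster 3 of 19 windows were called (15.8%), against 11.5% of autosomal windows. These are the windows from 24, 28 and 29 Mb. Of autosomal windows under 1000 events 87.1% were called, and of the 4 such windows here 3 were, so the count says nothing particular about 9p. In cluster 1, 1 of 19 windows was called lower (background 6.25%) and 0 higher (background 0.112%). It is the window from 24 Mb, with 12.3 event CPM (events scaled to 1000000), against 32.0 event CPM in all other cells, a ratio of 0.383 (0.302 to 0.481), and 24 of its 27 peaks were lower. In cluster 4 the windows from 24, 28 and 29 Mb were called higher (3 of 19, background 8.19%) and 0 lower (background 0.599%). The window from 28 Mb had 48.2 event CPM in cluster 4, against 16.6 event CPM in all other cells (ratio 2.91, 2.44 to 3.45), and that from 29 Mb had 27.9 event CPM in cluster 4, against 8.63 event CPM in all other cells (ratio 3.24, 2.56 to 4.08).

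In those last windows 21 of 26 and 9 of 9 peaks were higher in cluster 4. The ratio from 24 Mb in cluster 4 was 1.62 (1.35 to 1.92). The windows from 28 and 29 Mb were called lower in clusters 3 (ratios 0.527 and 0.401, background 3.82%) and 5 (0.508 and 0.446, background 2.54%), and that from 29 Mb in cluster 2 (0.606, background 2.99%). In clusters 2, 3 and 5, 0 of 19 windows were called higher, at backgrounds of 0.0374%, 0.0748% and 0.636%. Cluster 6 had 0 of 19 called, at a background of 4.30% higher and 0% lower. The windows from 28 and 29 Mb hold LINGO2 (RefSeq 27937617 to 29213601), with 29 peaks of 1256 counts. Among the 1592 cells with at most 10% mitochondrial UMIs, clustered again, 0 of 19 windows were called (background 0.398%), and the nearest clusters gave 0.763 from 24 Mb, 1.17 from 28 Mb and 2.05 from 29 Mb. In clusters drawn from expression the ratio from 24 Mb turned to 1.07. Without the windows from 24, 28, 29 and 30 Mb the stretch gave ratios from 0.977 to 1.03.

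**Figure D5:**
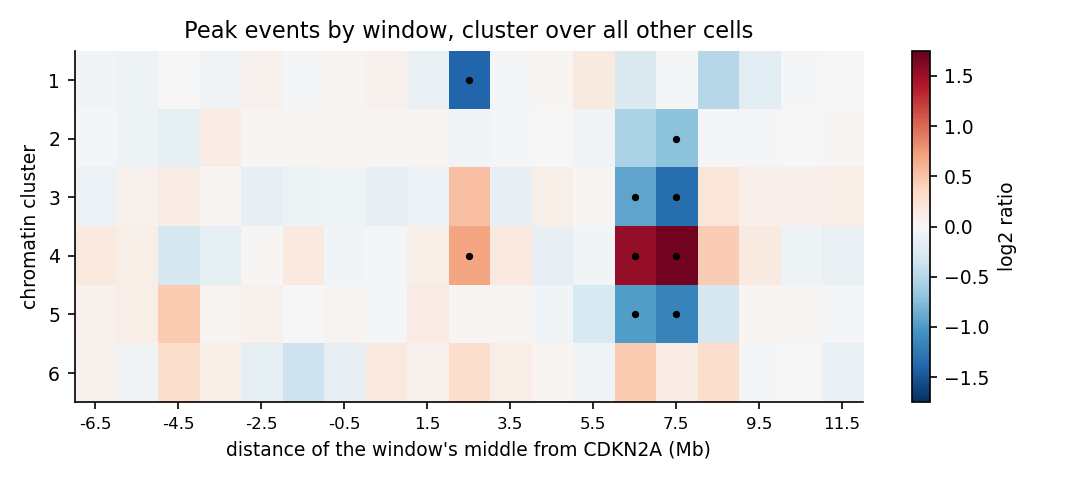
Log2 ratio of the scaled peak events in a chromatin cluster over all other cells (colour), by cluster (rows) and 1 Mb window (columns, by distance of the middle from CDKN2A in Mb). Dots mark called windows. Called windows lie in the columns at 2.5, 6.5 and 7.5 Mb, and the columns beside CDKN2A are near white.

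Of the 35 genes between 15 and 34 Mb with at least 100 UMIs, 9 (25.7%) passed the same rule in some cluster, against 23.8% of all 10306 such genes. Of the locus genes, MTAP passed it in cluster 2, with 29.5 CPM there, against 49.3 CPM in all other cells (ratio 0.597, 0.485 to 0.730), and MIR31HG in clusters 1 and 3. MIR31HG had 130 CPM in cluster 1, against 60.6 CPM in all other cells (ratio 2.15, 1.92 to 2.39), and 45.8 CPM in cluster 3, against 90.0 CPM in all other cells (ratio 0.509). CDKN2A, CDKN2B and CDKN2B-AS1 passed it in none, though some of their intervals exclude 1. CDKN2A had 38.8 CPM in cluster 2, against 30.2 CPM in all other cells (ratio 1.28, 1.06 to 1.55), and 26.7 CPM in cluster 3, against 33.7 CPM in all other cells (ratio 0.792, 0.628 to 0.991). CDKN2B had 38.8 CPM in cluster 2, against 27.99 CPM in all other cells (ratio 1.38, 1.14 to 1.68), and 24.6 CPM in cluster 1, against 32.9 CPM in all other cells (ratio 0.749, 0.604 to 0.923). For CDKN2B-AS1 every interval holds 1. Counts per cluster were 2 higher (background 3.57%) and 1 lower (2.84%) in cluster 1, 1 higher (2.38%) and 1 lower (4.96%) in cluster 2, 0 higher (2.08%) and 5 lower (3.56%) in cluster 3, 3 higher (2.47%) and 1 lower (3.78%) in cluster 4, 0 higher (3.6%) and 0 lower (3.49%) in cluster 5, and 1 higher (1.56%) and 0 lower (1.28%) in cluster 6.

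BNC2 separated cluster 4 most. It had 832 CPM there, against 358 CPM in all other cells (ratio 2.33, 2.21 to 2.44), and 313 CPM in cluster 3, against 471 CPM (ratio 0.664, 0.622 to 0.708). The non-coding RNA LINC01239 had ratios of 1.96 in cluster 4 (1.46 to 2.61, 69 UMIs there) and 0.439 in cluster 3 (0.280 to 0.660, 26 UMIs). DDX58, which encodes the viral RNA sensor RIG-I, had ratios of 1.59 in cluster 1, 0.658 in cluster 3 and 0.586 in cluster 4. BNC2-AS1 was lower in cluster 1 (ratio 0.396) and higher in cluster 4 (1.78), B4GALT1 was higher in cluster 2 (1.77), HAUS6, an augmin subunit, was higher in cluster 6 (1.85) and CCDC171 was lower in cluster 3 (0.577). BNC2 and BNC2-AS1 overlap, so reads of their shared stretch are uncertain. The window that holds them, from 16 Mb, was called in no cluster.

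The 8913 cells were barcodes that reached 1000 UMIs as well as 1000 peak counts, with mitochondrial genes giving 20% of UMIs or less. They held 16588148 UMIs and 48410778 peak counts, with medians of 1524 UMIs and 4034 peak counts a cell. Peak counts of the stretch were 142131, or 75283 events (0.293% of all, 0.291 to 0.295). As a check of the labelled cell type, the summed level of 13 mesothelial markers was 9858 CPM in cells and 12455 CPM in free RNA, most of it from keratins, with CALB2 at 771 CPM, MSLN at 79.0 CPM and WT1 at 68.4 CPM, while DES was at 0.301 CPM. Epithelial and squamous markers summed to 17.3 CPM with 2 of 8 at 0, immune markers to 8.74 CPM with 3 of 8 at 0 and endothelial markers to 19.5 CPM with 1 of 5 at 0. Fibroblast markers summed to 118 CPM with COL1A2 at 0, almost all of it COL1A1 (107.6 CPM).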

How the data were processed

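Per the file headers, the deposited matrix was made with Cell Ranger ARC 2.0.0 and holds whole-number counts, UMIs for 36601 gene rows and transposition counts for 215590 peaks, in 651860 barcodes without normalisation. GRCh38.p10, MACS2, ArchR 1.0.3 and Cell Ranger 2.0.0 also stand in the submitters' processing notes, with no role, and the peak calling steps are not given in the sources here. Of the 2 other deposited lists, barcodes and hashtag names, no values were used.

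The region, lists and members were chosen with earlier results of these data known. Of 11130 barcodes past both count minimums, 8913 had at most 20% mitochondrial UMIs. Doublets were not removed. Free RNA came from barcodes under 100 UMIs and 100 peak counts (789061 UMIs). A peak or gene belongs to the window that holds its start. Gene rows are the start intervals that the matrix lists, some of them wide. A peak within 1 kb of a row was counted as at a gene start. Of 75 gene rows with a RefSeq promoter, 72 lay within 1 kb of it. Clusters used peaks outside chromosome 9 in at least 20 cells (term frequency weights, 30 components, 15 neighbours, Leiden resolution 0.5, seed 0; scikit-learn 1.9.0, igraph 0.11.9, leidenalg 0.10.2, Python 3.11.15). Intervals are exact Poisson, Clopper-Pearson or conditional binomial, on events for peaks, and transposition pairs are not independent molecules. Windows, ratios and the count of cells without events were tested on simulated data. A peak-free stretch around CDKN2A had been planned as a measure. Since peaks overlap its row, the peaks there are given in its place. Genes were named where they lay at the locus, among the 10 span genes with most UMIs, next to the locus at 20 CPM or more, past the cluster rule, or in the pathway lists. Alternatives changed the cell filter, window width, thresholds, scaling and clustering. One gene of the pathway lists is not reported here.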

Additional observations from a re-analysis of the deposited data

How the results depend on the processing

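No paired analysis was possible because the pool is 1 sample without replicates. The window with CDKN2A kept its peak CPM within its interval under each cell filter and with events in place of counts. Scaled to 1000000 counts on the rest of chromosome 9 it stood at 6066, a change of unit. With at most 10% mitochondrial UMIs (1592 cells) the UMIs of its genes stood at 241 CPM, against 228 CPM. The ratio of cells without an event was 1.47 with raw counts, which come in pairs, and 1.035 with cells thinned to 1000 counts. Of the 4 peaks over the CDKN2A row, 2 lay in at least 1% of cells. With a distance of 5 kb, 65.8% of gene starts had a peak. Low windows numbered 7 of 32 at 0.5 Mb (9.6% of autosomal windows), 1 of 9 at 2 Mb (4.72%), 13 of 74 at 0.1 Mb (12.6%) and 2 of 17 with a shift of 0.5 Mb (7.2%). They numbered 7 of 19 at 25% of the median (14.2%), 2 of 19 at 5% (4.96%) and 4 under each cell filter. Windows called between clusters numbered 5 in clusters from expression, where 18.2% of autosomal windows were called against 11.5% as reported, and 0 with at most 10% mitochondrial UMIs, where 0.398% of autosomal windows were called. The ratio from 24 Mb was 1.07 in the expression cluster nearest to cluster 1 (Jaccard overlap 0.20). For the main results, 32 alternatives gave a value within the interval, or within 1.5-fold of the count, and 14 moved outside it. Of the values for single windows, genes and cluster ratios, 224 kept their side or interval, 40 moved outside it, 3 lost their call and 1 reversed. The window from 29 Mb was among the 3, since it fell under 100 events with at most 10% mitochondrial UMIs. The cause of these changes was not tested. The start-peak level from 20 to 34 Mb over other autosomal genes, 0.620, ran from 0.568 to 0.646 over 7 alternatives, chosen after seeing the data.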
